A study of Homo sapiens with 7 samples.

Results

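The cleavage and polyadenylation specificity factor (CPSF) is the protein complex that finds the poly(A) signal in a nascent transcript and cuts the RNA, after which a poly(A) polymerase (PAP) adds the tail. The genes described here were the 8 with the symbols CPSF1, CPSF2, CPSF3, CPSF4, WDR33, FIP1L1, SYMPK and RBBP6, selected by symbol. They were 8 of 16044 genes with sense reads, and they held 57 of 72453 sense poly(A) sites (PASs). RBBP6 is not a subunit of CPSF but a factor that joins it for cleavage.

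The data came from HEK293 cells, an established human embryonic kidney line, which had received either a control siRNA (siCtrl) or a knockdown (KD) siRNA. The targets were the 3 nuclear PAPs, namely Star-PAP, PAPα and PAPγ, taken singly, and the latter pair at once (double KD). The 3′READS method, which reads the RNA just before the poly(A) tail, gave 1 library each of siCtrl, siStar-PAP, siPAPα and siPAPγ in batch 1, 1 of the double KD, and 1 each of siCtrl and siStar-PAP in batch 2, for which the related 3′READS+ protocol was used. The double KD was listed in a table with the batch 1 siCtrl, and the batch to which it belongs was not given in the sources used here. There was thus 1 library per condition in a batch, and intervals below cover counting error only.

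CPSF works in a pair of modules. One, with CPSF1 as its scaffold, holds WDR33 and CPSF4, which contact the AAUAAA signal, and FIP1L1, which binds U-rich RNA and poly(A) polymerase. The other holds CPSF3, the endonuclease, with its inactive relative CPSF2 and the scaffold protein SYMPK. A gene with several PASs can yield transcripts with different 3′ ends, by alternative polyadenylation (APA). A PAS in an intron or an upstream exon can shorten the coding region, or leave it out where it lies before the coding sequence. A PAS in the 3′-most exon gives a different length of the 3′UTR.

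Levels are in RPM, the reads of a gene's sense PASs per 1000000 reads that support a PAS. Each transcript gives its reads at its 3′ end, so the value does not grow with transcript length. RPM is a share of a library, and fewer cells of a kind and less RNA per cell cannot be told apart. The tables held between 2362875 and 16245257 reads per library, which were 55.0% to 70.9% of the PAS supporting reads. With 3′READS each knockdown had a smaller percentage than its control. For siPAPγ it was 58.9%, for siPAPα 64.8% and for siStar-PAP 67.5%, where siCtrl had 70.9%. The double KD had 58.2% where siCtrl had 70.2%. Batch 2 showed 55.6% for siStar-PAP and 55.0% for siCtrl. RPM divides by all PAS supporting reads, so a smaller percentage gives lower ratios than table totals would. This applies to the median of all genes too, and it favors calls of lower genes. The 3 tables did not list the same PASs, so levels are compared only within a table.

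All 5 markers of HEK293 cells had reads in every library, except that PAX2 was at 0 in siStar-PAP of batch 1, and the markers summed to between 94.5 and 208 RPM. Of the 5 markers of other cell types PTPRC, ALB and PECAM1 were at 0 in all libraries, and the list as a whole had at most 12 reads in a library. TUT1, which encodes Star-PAP, had 2 reads in siStar-PAP against 83 in siCtrl of batch 1. PAPOLA, which encodes PAPα, had 12 reads after siPAPα against 71 and 8 in the double KD against 78. PAPOLA was also lower in siStar-PAP of batch 1, with 44 reads against 71, a log2 ratio of RPM of −1.22. The other labels could not be checked by reads. PAPOLG, which encodes PAPγ, had 15 reads in the library labelled siPAPγ against 5 in siCtrl and 6 in the double KD against 5, and TUT1 had 4 reads in siStar-PAP of batch 2 against 6. The names siPAPγ, double KD and siStar-PAP of batch 2 therefore stand below for the libraries labelled so. The study itself reports effective knockdown of the PAPs at the protein level, by immunoblot.

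Sequences are shown for the PASs on which the results below turn, those in upstream regions of WDR33, SYMPK and RBBP6 and the last-exon PASs of WDR33 and SYMPK, and for the single PAS of CPSF3. Each is 30 bases of the transcribed strand, 5′ to 3′, ending at the listed PAS (for the exon 7 site of WDR33, 1 base before it), from the GRCh37 genome, which is the assembly of hg19. Capitals mark the poly(A) signal hexamer found by search.
WDR33 exon 7, chr2:128520688-128520717, minus strand: AATAAAtttgctacatgctctgatgacggc
WDR33 intron 6, chr2:128522047-128522076, minus strand: ttcattccaAATAAAgaattcagtctttaa
WDR33 last exon, proximal site, chr2:128463499-128463528, minus strand: tatgAATACAgaatgtgatttacgcaagaa
WDR33 last exon, middle site, chr2:128462862-128462891, minus strand: ttgtttaaAATAAAcataccatttagccca
WDR33 last exon, distal site, chr2:128461804-128461833, minus strand: acAATAAAcctctacattatacttattaaa
SYMPK intron 13, chr19:46332954-46332983, minus strand: tttagaAATATAcctggttctctgtcctga
SYMPK intron 22, chr19:46322166-46322195, minus strand: gctcAATAAAgacttcctggttgacactca
SYMPK last exon, chr19:46318700-46318729, minus strand: gaAATAAAagatgtgaacttgggcaagtta
RBBP6 exon 1, chr16:24551878-24551907, plus strand: aagttTATAAAtatacgtatattgagagtg
RBBP6 intron 3, chr16:24560693-24560722, plus strand: tttcttgcAATAAAaaatgtttggagtgta
CPSF3 last exon, chr2:9613201-9613230, plus strand: aaAATAAAatgcattcgtttctctggggga

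Among these PASs the exon 7 site of WDR33 carries the canonical signal, while the exon 1 site of RBBP6 and the intron 13 site of SYMPK carry variants of it. Over all 57 PASs of the 8 genes, AATAAA stood in the last 40 bases of 24 (42.1%), ATTAAA alone of 9, another single-base variant of 14, and none of these of 10. In all 51882 PASs of the batch 1 table the share with AATAAA was 46.3%. The trimer ATA, searched on the transcribed strand between 100 and 41 bases before the PAS, stood at 27 of the 57 PASs (47.4%) and at 59.5% of the PASs of that table.

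The first question was whether the levels of the CPSF genes changed when a PAP was knocked down. As a group they followed the other genes. In batch 1 the median log2 ratio of RPM to siCtrl over the 8 genes was −0.43 in siStar-PAP, −0.36 after siPAPα and −0.43 after siPAPγ. The median over all genes with more than 50 reads in the pair was −0.45, −0.26 and −0.33. Over the 7 CPSF genes past 50 reads it was −0.34 in the double KD and −0.29 in siStar-PAP of batch 2, where all genes gave −0.38 and −0.16. Behind these medians the members went different ways. In RPM, CPSF3 and SYMPK were more than 2-fold lower than siCtrl in all 4 knockdown libraries that used 3′READS, which share a siCtrl library. CPSF4 and FIP1L1 were also below siCtrl in all 4, as was the median of all genes. CPSF1 was lower in siStar-PAP of batch 1 but higher after siPAPα, siPAPγ and the double KD.

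A gene was called when it changed by more than 2-fold and had more than 50 reads over the pair, with no test across single libraries. In siStar-PAP of batch 1, 3 of the 8 genes were called lower, where 26.2% of all genes were, and 0 higher, where 4.44% were. In siPAPα 2 were lower (22.1% of all genes) and 0 higher (8.50%). In siPAPγ 3 were lower (20.7%) and 1 higher (5.67%). The double KD had 2 lower (26.5%) and 1 higher (6.98%), and in siStar-PAP of batch 2 there was 1 lower (11.7%) and 0 higher (3.55%). Under TMM factors or DESeq2 size factors, which move the median of all genes in siStar-PAP of batch 1 to 0.03, 1 gene (SYMPK) stayed past 2-fold lower there, with CPSF1 at −0.78 and −0.79 and CPSF3 at −0.99 under both.

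**Figure D1:**
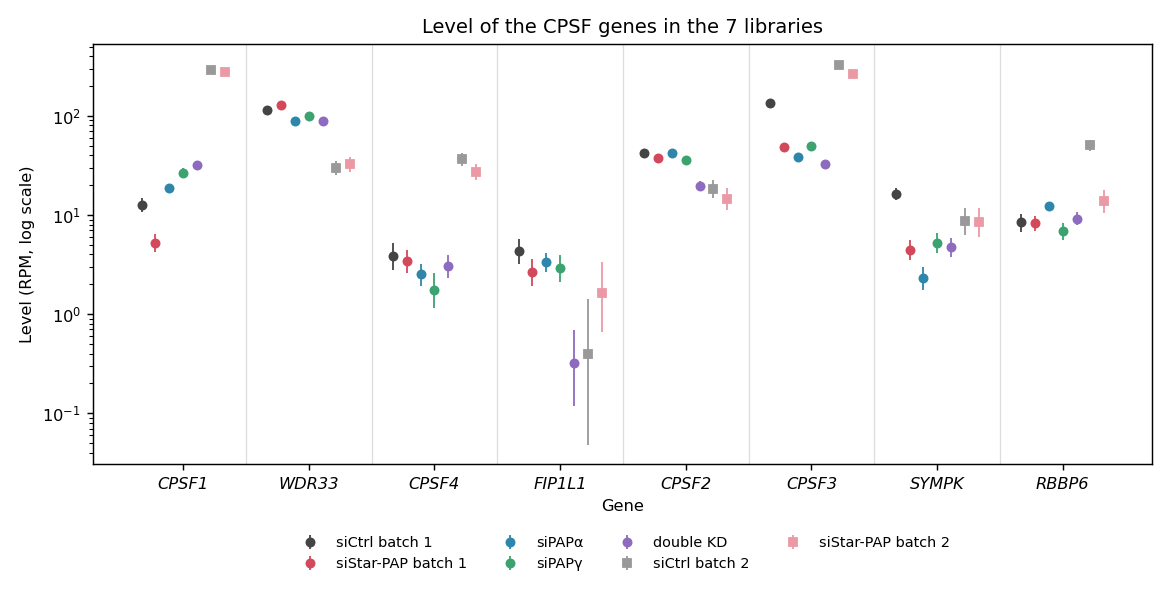
Level of each CPSF gene in the 7 libraries, in RPM on a log axis, with 95% Poisson intervals (circles, 3′READS; squares, 3′READS+ of batch 2). CPSF3 falls from 135 RPM in siCtrl of batch 1 to 49.9 RPM or less in the knockdowns of that protocol. CPSF1 lies at 279 RPM or more in batch 2 alone. The double KD was counted with another list of PASs, and siCtrl counted with that list is not drawn. It had 19.2 RPM for CPSF2 and 1.66 RPM for FIP1L1, so the double KD points are not to be read against the siCtrl points shown.

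CPSF1, the scaffold of the signal-binding module, had 12.6 RPM in siCtrl of batch 1 (144 reads), 5.26 in siStar-PAP, 18.9 after siPAPα and 26.8 after siPAPγ. No neighbors in order of level had overlapping intervals. The log2 ratio to siCtrl was −1.26 (95% interval −1.66 to −0.87) in siStar-PAP, with 17.7% of genes lower still. It was 0.58 (0.31 to 0.86) after siPAPα and 1.09 (0.81 to 1.37) after siPAPγ. In the table of the double KD the gene had 32.2 RPM against 11.6 in siCtrl, a log2 ratio of 1.47 (1.19 to 1.75), and 96.9% of genes were lower. In batch 2 it had 289 RPM in siCtrl and 279 in siStar-PAP, whose intervals overlapped. The fall in siStar-PAP of batch 1 was thus not seen in batch 2, where the log2 ratio was −0.05 (−0.16 to 0.06). Nearly all reads came from 1 PAS in exon 38, the last exon.

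WDR33, which contacts the poly(A) signal, had 114 RPM in siCtrl of batch 1, 128 in siStar-PAP, 88.7 after siPAPα and 99.2 after siPAPγ. The double KD gave 87.9 RPM against 118, and in batch 2 it had 32.5 RPM in siStar-PAP against 29.7. Its log2 ratios of RPM lay between −0.43 and 0.16. By that measure its total changed little while the use of its PASs, described below, changed much. Under TMM factors the lower values came to −0.03 after siPAPα, 0.17 after siPAPγ and 0.01 in the double KD. With such factors the log2 fold change in siStar-PAP over both batches was 0.51 (SE 0.33).

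CPSF4, whose zinc fingers contact the signal next to WDR33, was among the lowest of the genes in batch 1, with 3.85 RPM in siCtrl (44 reads), 3.44 in siStar-PAP, 2.51 after siPAPα and 1.76 after siPAPγ. Each neighbor in this order overlapped the next. It was called lower after siPAPγ, on 26 reads, at a log2 ratio of −1.13 (−1.89 to −0.40), and the call was lost under TMM factors, DESeq2 size factors and the totals of the deposited tables. The double KD gave 3.03 RPM. In batch 2 it had 36.4 RPM in siCtrl and 27.1 in siStar-PAP, with overlapping intervals.

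FIP1L1, the subunit that binds poly(A) polymerase, had 4.29 RPM in siCtrl of batch 1 (49 reads), 2.66 in siStar-PAP, 3.35 after siPAPα and 2.91 after siPAPγ, and the intervals of neighbors in order of level overlapped. The other tables listed fewer of its PASs. There it had 6 reads in the double KD against 19 in siCtrl, and 7 in siStar-PAP of batch 2 against 2, too few for a call.

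CPSF2, the inactive relative of the nuclease, lay between 35.8 and 42.3 RPM in the batch 1 table. It had 42.3 RPM in siCtrl, 37.8 in siStar-PAP, 41.9 after siPAPα and 35.8 after siPAPγ, and neighbors in order of level had overlapping intervals. The double KD gave 19.8 RPM against 19.2 in siCtrl of that table, which does not list the PAS at the annotated end of the gene. In batch 2 it had 14.6 RPM in siStar-PAP against 18.4. Its log2 ratio was −0.16 in siStar-PAP of batch 1 (0.32 under TMM factors), −0.01 after siPAPα, −0.24 after siPAPγ and 0.05 in the double KD.

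CPSF3, the nuclease that makes the cut, had the most reads of the group in siCtrl of batch 1, at 135 RPM (1545 reads). It had 49.0 RPM in siStar-PAP, 38.8 after siPAPα and 49.9 after siPAPγ. All knockdowns of batch 1 lay below siCtrl without overlap, and siStar-PAP and siPAPγ overlapped each other. The log2 ratio was −1.46 (−1.59 to −1.34) in siStar-PAP, −1.80 (−1.92 to −1.68) after siPAPα and −1.44 (−1.57 to −1.31) after siPAPγ. In the double KD the gene had 32.6 RPM against 135, a log2 ratio of −2.05 (−2.19 to −1.92), and 6.21% of genes were lower still. In batch 2 it had 265 RPM in siStar-PAP against 324 in siCtrl, a log2 ratio of −0.29 (−0.40 to −0.18), below the median of all genes by 0.13. The 4 knockdowns of the 3′READS tables share 1 siCtrl library and are not independent. CPSF3 has a single listed PAS, at the annotated end of exon 18, the last exon.

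SYMPK, the scaffold that ties CPSF to other 3′ end factors, had 16.3 RPM in siCtrl of batch 1 (186 reads), 4.47 in siStar-PAP, 2.31 after siPAPα and 5.20 after siPAPγ. All knockdowns were below siCtrl without overlap. The log2 ratio reached −2.82 (−3.27 to −2.38) after siPAPα, where 1.49% of genes were lower. It was −1.86 (−2.27 to −1.47) in siStar-PAP and −1.65 (−2.05 to −1.25) after siPAPγ. With the double KD it was −1.78 (−2.16 to −1.41), from 4.74 RPM against 16.3. In batch 2 SYMPK had 8.47 RPM in siStar-PAP against 8.72, on 36 and 44 reads, a log2 ratio of −0.04 (−0.72 to 0.63). The same siCtrl library again stands behind all 4 batch 1 and double KD ratios.

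RBBP6, a RING finger protein that activates cleavage, had 8.40 RPM in siCtrl of batch 1 (96 reads), 8.28 in siStar-PAP, 12.2 after siPAPα and 6.83 after siPAPγ. Of these siPAPα alone stood apart from siCtrl. The double KD gave 9.15 RPM against 8.40, with overlap. In batch 2 it had 13.9 RPM in siStar-PAP (59 reads) against 50.3 in siCtrl (254 reads), a log2 ratio of −1.86 (−2.29 to −1.44), with 2.10% of genes lower. RBBP6 was thus the gene called lower in siStar-PAP of batch 2, while in batch 1 its log2 ratio was −0.02 (−0.41 to 0.37).

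**Figure D2:**
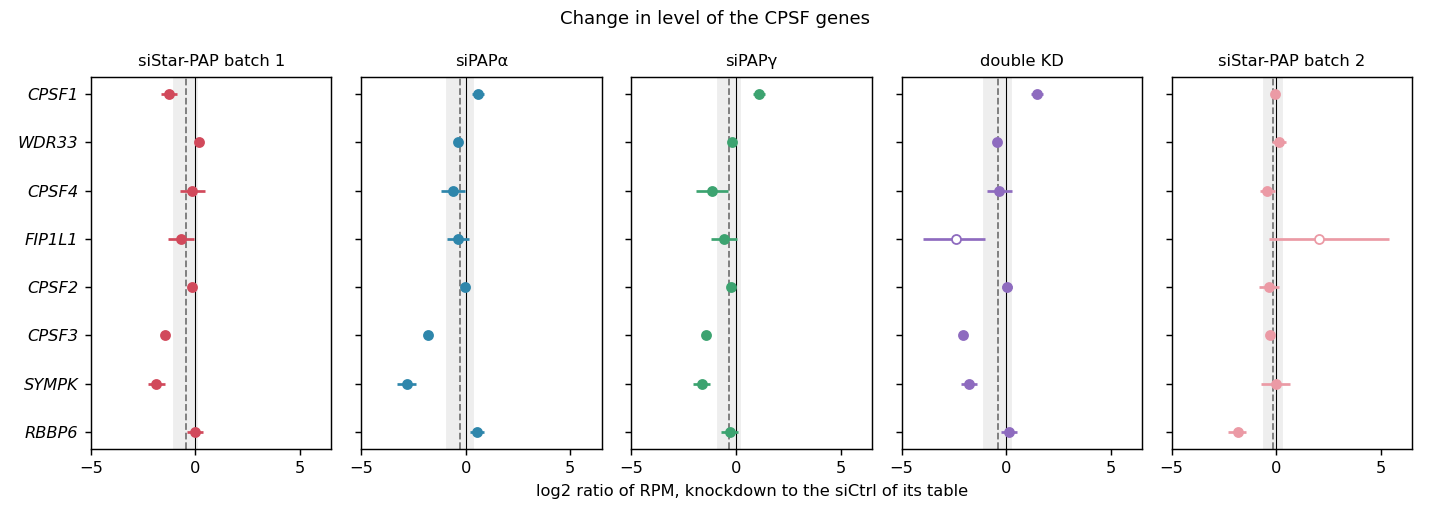
Log2 ratio of RPM of each knockdown to the siCtrl of its table, with 95% intervals from counts. The dashed line is the median and the gray band the interquartile range of all genes past 50 reads, and open circles are genes at or under 50 reads. CPSF3 and SYMPK lie left of the band in siStar-PAP of batch 1, siPAPα, siPAPγ and the double KD, and inside it in siStar-PAP of batch 2.

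Only siStar-PAP and siCtrl had a second library, and these 4 libraries were tested together with edgeR's quasi-likelihood test and Benjamini-Hochberg adjustment over 11878 genes, blocked by batch, which left 1 residual degree of freedom. No CPSF gene was called (0 of 8), where 2.31% of all genes were, and 0 of 8 had an unadjusted p under 0.05, where 15.0% of all genes had. DESeq2 also called 0, with an adjusted p for 6 of the 8. The log2 fold change was −0.53 (SE 0.34, adjusted p = 0.51) for CPSF3, −0.66 (SE 0.48, adjusted p = 0.57) for SYMPK, −0.58 (SE 0.46, adjusted p = 0.60) for RBBP6 and 0.51 (SE 0.33, adjusted p = 0.51) for WDR33. CPSF1 was at −0.27 (SE 0.35, adjusted p = 0.79), CPSF2 at 0.12 (SE 0.35, adjusted p = 0.92), CPSF4 at 0.03 (SE 0.39, adjusted p = 0.99) and FIP1L1 at 0.62 (SE 0.95, adjusted p = 0.83). Each standard error is wide enough that these misses do not show equal levels. The batches also differ in protocol and in the PASs listed, so their counts per gene do not cover the same sites. For CPSF2 the list of batch 2 lacks the PAS at the annotated end of the gene. The single-batch ratios from the same scaling were −0.99 and −0.11 for CPSF3, −1.39 and 0.14 for SYMPK, and 0.46 and −1.68 for RBBP6, in batch 1 and batch 2.

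Other 3′ end processing genes were followed as a list of 16. It held CstF, the cleavage factors, PABPN1, relatives of CPSF (some of them in the Integrator complex) and histone 3′ end factors. In siStar-PAP of batch 1, 2 of the 13 past 50 reads were called lower, PCF11 at −1.79 and CPSF3L at −2.76, and 0 higher, where 26.2% and 4.44% of all genes were. In siPAPα 2 of 14 were lower, CPSF3L at −1.59 and LSM11 at −1.06, and CSTF1 was higher at 1.46 (22.1% and 8.50% of all genes). In siPAPγ 1 of 13 was lower, LSM11 at −1.39, and CSTF1 was higher at 1.19 (20.7% and 5.67% of all genes). The double KD had 2 of 12 lower, CPSF3L at −1.62 and SLBP at −1.22, and 2 higher, CSTF1 at 1.49 and CSTF3 at 1.08 (26.5% and 6.98% of all genes). None of the 12 past 50 reads (0) was called in siStar-PAP of batch 2 in either direction (11.7% and 3.55% of all genes). The list's medians ran from −0.60 in siStar-PAP of batch 1 to 0.02 in the double KD.

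CSTF1 and CSTF3 encode subunits of the cleavage stimulation factor, which binds downstream of the cut and stimulates cleavage together with CPSF. CSTF1 was the 1 gene of the 14 tested that was called over both batches, where 1.23% of all genes were called higher and 1.08% lower. Its log2 fold change was 1.29 (SE 0.34, adjusted p = 0.044, edgeR's quasi-likelihood test). Its log2 ratios of RPM, which do not use the TMM factors of that fit, were 0.99 in batch 1 and 0.87 in batch 2. The call was lost with PAS supporting read totals as library size (log2 fold change 0.93, adjusted p = 0.18) and with no replicate block (1.43, adjusted p = 0.9997), and with no filter on low counts CPSF3L, the Integrator nuclease, was called lower as well (−1.55, adjusted p = 0.047). CSTF1 was higher than siCtrl in all 5 knockdown libraries, of which those of 3′READS share a siCtrl library. The genes whose 5 log2 ratios lay closest to the median of the CPSF genes, among 6420 with enough reads in every pair, were ASF1B at a distance of 0.13, VPS52 at 0.17 and ZNF703 at 0.17, while the median of all genes lay at 0.20.

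The second question was whether the knockdowns changed which PASs the CPSF genes used. For each PAS the share of its gene's reads was compared between 2 libraries by a two-sided Fisher's exact test, with Benjamini-Hochberg adjustment over all PASs of the table. For siStar-PAP of batch 1, 19 of 39 PASs of the CPSF genes were called, where 35.2% of all PASs were. In siPAPα 17 of 39 were called (36.6% of all), after siPAPγ 12 of 37 (24.2%), and in the double KD 17 of 35 (35.3%). In siStar-PAP of batch 2, 0 of 28 were called with this test, where 5.52% of all were, and that library pair had fewer reads. These tests compare libraries, not conditions. A gain at a PAS of a gene is a loss at its others, so the PASs are not independent. By gene, 5 of 7 CPSF genes had a call in siStar-PAP of batch 1 (6454 of 10091 genes tested) and 6 of 7 in siPAPα (6875 of 10417). In siPAPγ 5 of 7 had a call (5185 of 10346), and in the double KD 5 of 6 (6475 of 9862). Batch 2 had 0 of 5 (1126 of 8566). A stricter count took PASs that were called and also changed by at least 10 percentage points. It held 8 of 39 in siStar-PAP of batch 1 (24.5% of all PASs tested) and 9 of 39 in siPAPα (24.7%). In siPAPγ it held 5 of 37 (16.7%), and in the double KD 12 of 35 (22.7%). For siStar-PAP of batch 2 it was 0 of 28 (4.27%).

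The clearest changes lay in PASs upstream of the last exon. In siCtrl of batch 1 such PASs held 953 of the 3855 reads of the CPSF genes, 24.7% (exact Clopper-Pearson 95% interval 23.4% to 26.1%), and 5.00% of the reads of all genes. WDR33, SYMPK and RBBP6 gave all 953. The share over the CPSF genes was 22.4% in siStar-PAP, 11.01% after siPAPα and 11.8% after siPAPγ. It was 9.70% in the double KD against 26.8% in siCtrl of that table, and 3.88% in siStar-PAP of batch 2 against 8.50%. Over all genes the share stayed between 3.87% and 5.18%. The share over the CPSF genes also moves with the level of each gene, so the genes are given singly.

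WDR33 had 1308 reads in siCtrl of batch 1, and 573 of them (43.8%) ended in exon 7 of 22, within the coding sequence. The share there was 27.5% in siStar-PAP, 4.86% after siPAPα (108 of 2224 reads) and 12.7% after siPAPγ. In the double KD it was 5.45% against 42.5%. The site fell in all 4, by Fisher's exact test, with adjusted p = 3.83e-20 in siStar-PAP, 6.78e-174 after siPAPα, 1.73e-74 after siPAPγ and 1.19e-135 in the double KD. The annotation holds a short transcript of WDR33 that reads on through exon 7 and ends 580 bases beyond this PAS.

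In RPM the exon 7 site had 50.1 in siCtrl (46.1 to 54.4), 35.3 in siStar-PAP, 4.31 after siPAPα, 12.6 after siPAPγ and 4.79 in the double KD. The last-exon sites of WDR33 went the other way, from 54.4 RPM to 86.8, 79.4 and 82.2, and from 57.4 to 80.9 in the double KD. The total of the gene thus hid a lower short and a higher full-length 3′ end. In batch 2 the exon 7 site held 12 of 150 reads (8%) in siCtrl and 7 of 138 (5.07%) in siStar-PAP, and another site, in intron 7 past it, held 28 and 15 reads. All sites of WDR33 upstream of the last exon held 36.0% (28.3% to 44.2%) in siCtrl and 21.7% (15.2% to 29.6%) in siStar-PAP of batch 2, and those intervals overlap.

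Within the last exon of WDR33 the middle site gained most. It held 25.2% of reads in siCtrl of batch 1, 44.1% in siStar-PAP, 43.7% after siPAPα and 51.5% after siPAPγ, and 55.6% in the double KD against 24.5%. The proximal site, the one with the signal variant AATACA, held 15.5% in siCtrl, 11.1% in siStar-PAP, 26.2% after siPAPα and 18.0% after siPAPγ. The relative expression difference (RED) is the log2 ratio of distal to proximal reads in the knockdown minus that in siCtrl, taken for the 2 last-exon PASs with most reads. A positive RED is a shift to the distal site. For WDR33 it was 1.28 (0.96 to 1.61) in siStar-PAP of batch 1, 0.04 (−0.26 to 0.33) after siPAPα, 0.81 (0.49 to 1.14) after siPAPγ and 0.69 (0.39 to 1.00) in the double KD. In siStar-PAP of batch 2 it was −0.12 (−1.06 to 0.81), an interval that reaches to both sides of 0. With the proximal and the distal site as the pair, the value after siPAPα was 0.77 (0.37 to 1.18), so that a shift there depends on the pair taken.

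**Figure D3:**
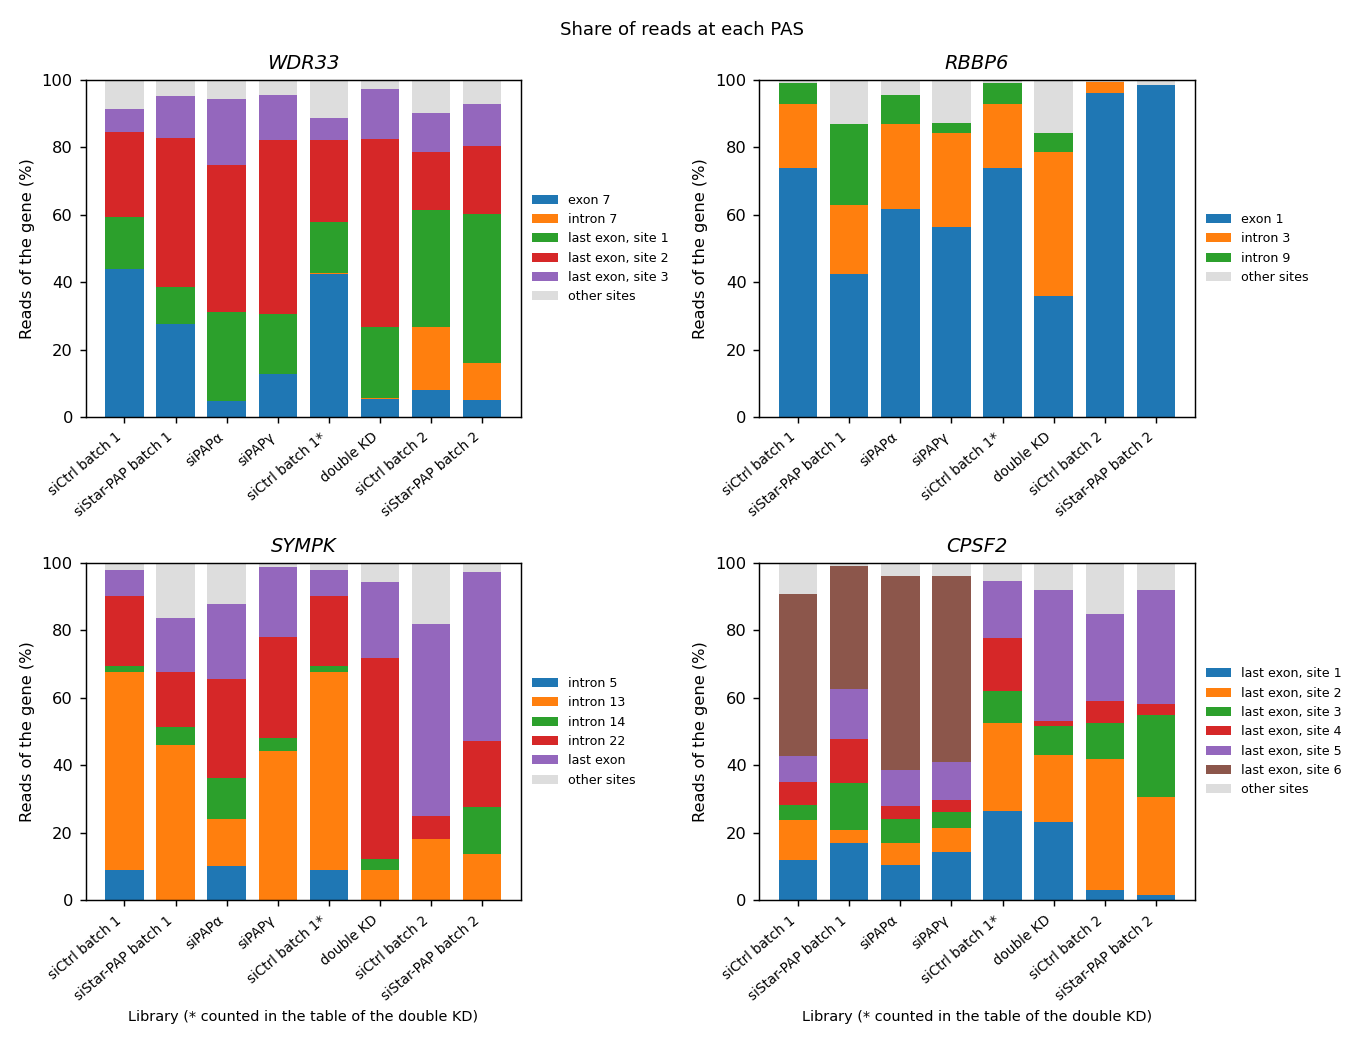
Share of the reads of WDR33, RBBP6, SYMPK and CPSF2 at each PAS that reached 10% in a library, in 5′ to 3′ order from the bottom, by library; PASs within 24 nt are joined and gray is the rest, with 1 further RBBP6 site in it. The exon 7 segment of WDR33 shrinks from 43.8% in siCtrl to 4.86% after siPAPα, and the intron 13 segment of SYMPK from 58.6% to 13.8%. The last CPSF2 site is listed in the first table alone.

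SYMPK had 92.5% of its siCtrl reads in introns in batch 1. The largest site, in intron 13, had 109 of 186 reads (58.6%) in siCtrl, 34 of 74 in siStar-PAP, 8 of 58 (13.8%) after siPAPα and 34 of 77 after siPAPγ, and in the double KD 8 of 89 (8.99%). Its share fell after siPAPα (adjusted p = 2.23e-08, Fisher's exact test) and in the double KD (adjusted p = 9.96e-15). The lower level of SYMPK came mostly from intron sites. The intron 13 site went from 9.54 RPM in siCtrl to 2.05, 0.32 and 2.30 in siStar-PAP, siPAPα and siPAPγ and to 0.43 in the double KD. The last-exon site had 14 reads in siCtrl, and its level of 1.23 RPM (0.67 to 2.06) overlapped with 0.73 in siStar-PAP, 0.52 after siPAPα, 1.08 after siPAPγ and 1.06 in the double KD.

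The intron 22 site of SYMPK had 39 reads in siCtrl and 53 in the double KD, where its share rose from 21.0% to 59.6% (adjusted p = 1.47e-08, Fisher's exact test). In RPM it had 3.41 in siCtrl, 0.73, 0.68 and 1.55 in the knockdowns of Star-PAP, PAPα and PAPγ, and 2.82 in that of both. In batch 2 the last exon held 25 of 44 SYMPK reads in siCtrl and 18 of 36 in siStar-PAP, a larger part than in batch 1, and the intron 13 site held 8 and 5.

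In siCtrl of batch 1, 71 of 96 reads of RBBP6 (74.0%) lay in exon 1 of 18, outside the coding sequence, and 18 in intron 3. The intron 3 PAS is the annotated end of an RBBP6 transcript, a short form that in the gene's known biology encodes the DWNN domain without the RING finger. In siStar-PAP the exon 1 share was 42.3% (adjusted p = 3.16e-05, Fisher's exact test), after siPAPα 61.8%, which did not pass, and after siPAPγ 56.4% (adjusted p = 0.048). In the double KD it was 36.0% (adjusted p = 5.3e-08), and the intron 3 site rose there from 18.8% to 42.4% (adjusted p = 0.00062, Fisher's exact test). In batch 2 it was 96.1% in siCtrl (244 of 254) and 98.3% in siStar-PAP (58 of 59), so the lower level of RBBP6 there was a lower number of reads at the exon 1 site.

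In siStar-PAP of batch 1 the intron 9 site of RBBP6 gained, with 33 of 137 reads against 6 of 96 (adjusted p = 0.0019, Fisher's exact test). It held 26 of 306 reads after siPAPα, 3 of 101 after siPAPγ and 10 of 172 in the double KD, none of which passed, and the table of batch 2 does not list it.

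**Figure D4:**
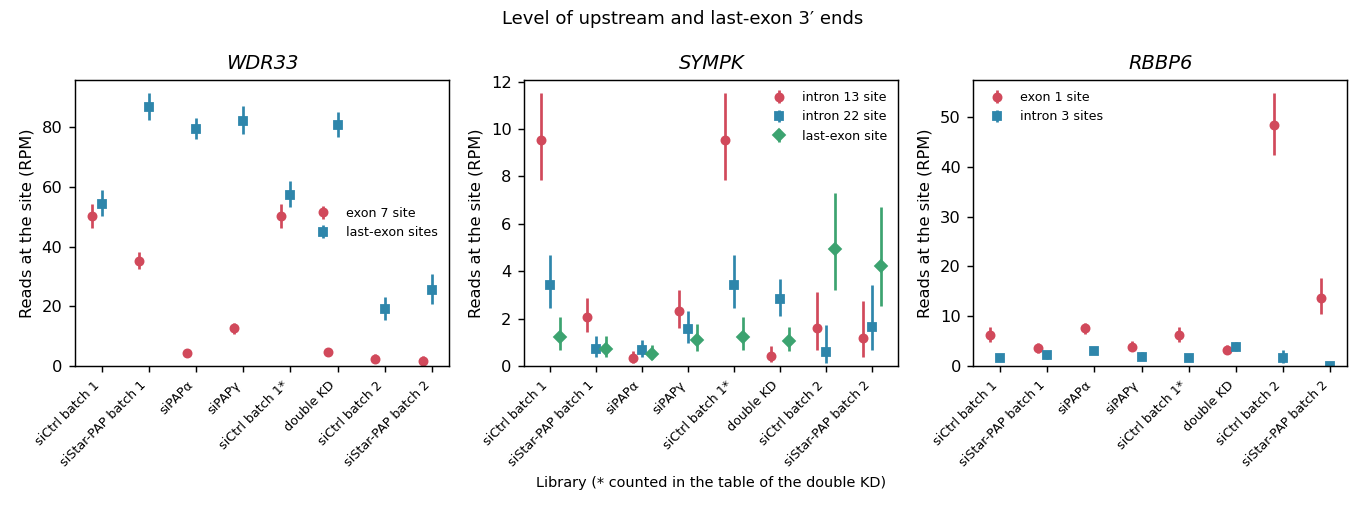
Level in RPM of upstream 3′ ends of WDR33, SYMPK and RBBP6 and of last-exon 3′ ends of WDR33 and SYMPK, by library, with 95% Poisson intervals. For WDR33 the exon 7 site drops from 50.1 RPM to between 4.31 and 35.3 RPM in the knockdowns of 3′READS while the last-exon sites rise to between 79.4 and 86.8 RPM.

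In CPSF2 all 11 listed PASs lie in exon 16, the last, spread along a long 3′UTR. The PAS at the annotated end held 232 of 483 reads (48.0%) in siCtrl of batch 1, 36.5% in siStar-PAP (adjusted p = 0.0010, Fisher's exact test), 57.3% after siPAPα (adjusted p = 0.0038) and 55.1% after siPAPγ, which did not pass. RED was −0.90 (−1.43 to −0.36) in siStar-PAP, 0.47 (−0.04 to 0.97) after siPAPα and −0.06 (−0.61 to 0.49) after siPAPγ. The end site was thus used less in siStar-PAP of batch 1, by share and by RED, and more after siPAPα by share. The tables of the double KD and of batch 2 lack this PAS, so other pairs were compared, with RED at 1.38 (0.67 to 2.08) in the double KD and 0.81 (−0.37 to 1.98) in siStar-PAP of batch 2.

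CPSF4 used several sites around its annotated end. The PAS at that end held 22 of 44 reads in siCtrl of batch 1 and 10 of 57 in siStar-PAP (adjusted p = 0.0054, Fisher's exact test), and a proximal PAS rose from 6 to 23 reads (adjusted p = 0.015). RED was −3.08 (−4.76 to −1.39) for this pair. With the first and the last PAS that held at least 5% of reads it was 2.98 (−0.34 to 6.30), on 1 distal read in siCtrl. That interval reaches to both sides of 0. In batch 2 the end site held 182 of 184 reads in siCtrl and 115 of 115 in siStar-PAP. FIP1L1 had 1 called PAS, the most distal, at 55.1% in siCtrl and 29.8% after siPAPα (adjusted p = 0.019). For CPSF1 the second PAS, 6333 bases beyond the annotated gene, had 11 reads in siCtrl, 5 in siStar-PAP and 0 after siPAPα and siPAPγ.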

How the data were processed

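HEK293 libraries were prepared with 3′READS or, in batch 2, 3′READS+. Per the study's methods and the submitters' processing notes, reads were mapped to hg19 with Bowtie2 (version not given in the sources used here), those with MAPQ above 10 and at least 2 untemplated Ts were kept, and sites within 24 nt were clustered. The authors deposited counts, the reads at each PAS of a gene, not normalized. All columns were mapped to samples by name.

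The rule for the members uses gene symbols alone, but the members and lists were chosen with earlier results of these data known. Sense counts were summed per gene, and RPM was taken over the PAS supporting read totals that the study gives. Intervals were exact Poisson for levels, conditional binomial for ratios and Clopper-Pearson for shares, at 95%, and cover counting error only, since PCR reads are not independent molecules. Depth ranged from 2362875 to 16245257 reads in the tables. A call on levels needed more than 2-fold and more than 50 reads over the pair. edgeR 4.0.16 (TMM factors, default filter) tested siStar-PAP against siCtrl with batch as a block, since the label of batch 2 marks a shared batch. Deviations from the group means correlated at r = 0.889 within batches. With a single pair of libraries per group this is the same value in both batches. It also holds the difference in protocol and PAS list, so it cannot show that cultures were paired. The labels name no separate cultures, so p-values measure the spread between these libraries. DESeq2 1.42.0 was an alternative. Fisher's exact test on PAS shares replaced the study's own program. Scripts were tested on simulated data (R 4.3.3, Python 3.11.15, scipy 1.17.1). Genes named were the 8 members, the knocked-down genes, those called of a list of 16 related genes, and the 3 nearest in profile. Hexamers were searched on the transcribed strand in the 40 bases before a PAS, first AATAAA, then ATTAAA and then 10 other single-base variants. Exons are those of GENCODE (version 44, lifted to GRCh37). Alternatives covered scaling, read filters, antisense rows, the replicate block, each batch alone, PAS filters, merging and thinning. One PAS of RBBP6 is not reported here.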

Additional observations from a re-analysis of the deposited data

Results flagged for a closer look

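In siStar-PAP the log2 ratio of RPM had opposite signs in the 2 batches for 1 gene, and so did the change in share of 4 of the PASs called in batch 1. The difference between batches was not tested. Under TMM factors CPSF1, CPSF2, CPSF4, SYMPK and RBBP6 had opposite signs as well. FIP1L1 had log2 ratios of −0.69 in batch 1 and 2.06 in batch 2, the latter on 7 reads against 2. The CPSF2 PAS at chr14:92629172 gained 5.92 percentage points in batch 1 and was 3.23 points lower in batch 2 (a change of −3.23). For the CPSF4 PAS at chr7:99054996 the changes were −32.5 and 1.09 points, for the RBBP6 exon 1 PAS at chr16:24551907 they were −31.6 and 2.24 points, and for the WDR33 PAS at chr2:128463499 they were −4.39 and 9.54 points. None of the batch 2 changes passed Fisher's exact test.

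Among rows outside the comparisons, the upstream antisense PAS of SYMPK had 7 reads in the double KD, 0.37 RPM (0.15 to 0.77), against 3 reads in siCtrl, 0.26 RPM (0.05 to 0.77). The intervals overlap.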

How the results depend on the processing

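Of 447 values recomputed under alternatives, 354 were counted as the same, 80 as moved and 13 as reversed in sign. The same meant within the counting spread or, for counts of calls, within 1.5 times. For the fit over both batches it meant the same sign and call, whatever the size of the move, and for a batch left out, within the standard error. Many values could hardly move, since antisense rows concern SYMPK alone (53 of 53 the same). Leaving out the CPSF2 PAS likewise concerns CPSF2 (50 of 53 the same). The 354 thus overstate stability. TMM and DESeq2 size factors set the median of all genes near 0, so the median of the CPSF genes turned from −0.43 to 0.053 and 0.048 in siStar-PAP of batch 1 and came to −0.051 and −0.074 in siPAPγ, and the double KD came to 0.09 under both. Genes more than 2-fold lower in siStar-PAP of batch 1 went from 3 to 1 under either. Under the totals of the deposited tables, 8 of 53 values moved and 45 were the same. With 1 read added and no filter, 1 gene (FIP1L1) passed 2-fold higher in batch 2. In the fit over both batches no alternative called a CPSF gene. With PASS totals as library size CPSF2 came to −0.24 and CPSF4 to −0.30, and 1 member, CPSF3, had an unadjusted p under 0.05. With no replicate block CPSF1 came to 0.11 and CPSF4 to −0.19, and no gene of the table was called, against 128 lower and 146 higher with the block. Leaving out a batch leaves no test. The values then ranged from −0.78 to 0.13 for CPSF1, −0.16 to 0.32 for CPSF2, −0.99 to −0.11 for CPSF3, −0.25 to 0.32 for CPSF4, 0.31 to 0.64 for WDR33, −0.21 to 2.23 for FIP1L1, −1.39 to 0.14 for SYMPK and −1.68 to 0.46 for RBBP6. PAS calls fell to 8, 9 and 5 in siStar-PAP of batch 1, siPAPα and siPAPγ when 10 percentage points were asked for as well, and to 11 in siPAPα after thinning. With introns alone as the upstream region, the shares were 8.02%, 6.19%, 5.33% and 4.65% in siCtrl, siStar-PAP, siPAPα and siPAPγ, 8.86% and 5.44% in siCtrl and the double KD, and 1.81% and 1.502% in siCtrl and siStar-PAP of batch 2. With the outermost PASs RED of CPSF4 came to 2.98 (−0.34 to 6.30, on 1 distal read in siCtrl) in siStar-PAP of batch 1. RED of WDR33 went from 0.04 to 0.77 in siPAPα. Without the CPSF2 PAS at the annotated end, an alternative chosen after seeing the data, its log2 ratio was 0.13, −0.30 and −0.45 in the batch 1 knockdowns. Depth limits CPSF4, FIP1L1 and the batch 2 PASs most.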
